A study of Homo sapiens with 8 samples.

Results

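The genes described here are 9 helpers of the chaperonin system, chosen by name and function from the 60664 genes in the count tables. They comprise the phosducin-like proteins PDCL, PDCL3 and TXNDC9, the tubulin folding cofactors TBCA, TBCB, TBCC, TBCD and TBCE, and the small GTPase ARL2 that works with TBCD. All 9 passed the filter on low counts in both comparisons. Selective ribosome profiling (selective Ribo-seq) sequences the fragments of mRNA protected by ribosomes (RPFs), from all ribosomes and from those recovered with a chaperone. It was performed in U2OS, a human osteosarcoma cell line, in 2 monoclonal lines made by CRISPR–Cas9 integration of a HaloTag. The tag sat on CCT4, a subunit of the chaperonin TRiC, in the genotype CCT4-Halo, and on a prefoldin (PFD) subunit in the genotype PFDN4-Halo. Each line gave an input group and a pulldown group, named TRiC or PFD after the chaperone, which makes 4 groups of 2 biological replicates. All 8 libraries came from cells given 100 µg/ml cycloheximide for 1 min and then crosslinked with 2 mM DSP for 30 min. Input means the ribosome pellet before pulldown and pulldown means the ribosomes held by anti-HaloTag beads. Each tagged line is a single clone, and no pulldown from untagged cells was analysed here.

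TRiC is a ring-shaped chaperonin that encloses actin, tubulin and many propeller proteins while they fold, and prefoldin is a hexamer that hands unfolded chains to it. Phosducin-like proteins bind the chaperonin directly: PDCL serves the assembly of G protein beta subunits with their gamma partners, and PDCL3 and TXNDC9 are linked to actin and tubulin folding. Tubulin that leaves TRiC is not yet a dimer. TBCB and TBCE receive alpha-tubulin, TBCA and TBCD receive beta-tubulin, and TBCC joins the assembly and triggers GTP hydrolysis so that the finished dimer is released. ARL2 forms a complex with TBCD. The question asked here was whether ribosomes translating the mRNAs of these helpers were more or less frequent in the chaperone pulldowns than in the inputs.

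The share of each coding sequence that can be counted differed widely, and this bears on every value below. The authors kept unique alignments and counted reads per gene with STAR, which sets aside a read that overlaps exons of more than 1 gene. A 28-base window was called countable here if it had no exact copy elsewhere in hg38 and touched no exon of another gene on the same strand in GENCODE release 44. All windows were countable in TBCB, TBCC, PDCL and TBCD. For TXNDC9 it was 56.9% of 654 windows, with the copies in the pseudogene ENSG00000227040, and for TBCA 53.3% of 300, with the copies mostly in the pseudogene TBCAP1. For PDCL3, 504 of 693 windows had an exact copy, chiefly in the pseudogenes PDCL3P4 and PDCL3P5, which left 27.3%. The pseudogenes themselves held few reads, with at most 85 counts summed over the 7 PDCL3 pseudogenes in any library, and at most 16 over the 3 of TBCA.

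ARL2 and TBCE share exons with read-through genes. Of the 555 coding bases of ARL2, 38.9% are exclusive to it. The others lie in exons of ARL2-SNX15, which was listed at 0 in all 8 libraries. The 1584 coding bases of TBCE all lie in exons of the read-through gene ENSG00000285053, which held between 0 and 56 counts per library, so no coding window of TBCE was countable. On that annotation the counts listed for TBCE lie outside its coding sequence. The annotation the authors used is not given in the sources used here, and with another release these shares could differ. Of 19942 coding genes, 850 had no exclusive coding base, and their median level in the TRiC inputs was 0 CPM (counts scaled to library size) per kilobase of coding sequence, against 6.68 for the 17604 genes with a fully exclusive coding sequence.

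Stretches of 3 spliced coding sequences show where these limits fall. They are given 5′ to 3′ from hg38 (GRCh38), and capitals mark the bases at which a countable 28-base window starts. The ARL2 stretch holds coding bases 312 to 551 (chr11:65018706-65021851, plus strand, interrupted by introns), where the countable part opens at base 340 and the last such window starts at 528.
ARL2: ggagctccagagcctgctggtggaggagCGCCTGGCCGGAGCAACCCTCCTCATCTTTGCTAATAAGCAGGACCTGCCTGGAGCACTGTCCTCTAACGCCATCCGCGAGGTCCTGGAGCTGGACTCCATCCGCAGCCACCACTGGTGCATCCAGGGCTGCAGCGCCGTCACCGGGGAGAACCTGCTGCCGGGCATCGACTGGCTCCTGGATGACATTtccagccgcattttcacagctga
The PDCL3 stretch holds coding bases 151 to 300 (chr2:100568948-100569653, plus strand), which contain the longest countable run of this gene, from base 179 to 230.
PDCL3: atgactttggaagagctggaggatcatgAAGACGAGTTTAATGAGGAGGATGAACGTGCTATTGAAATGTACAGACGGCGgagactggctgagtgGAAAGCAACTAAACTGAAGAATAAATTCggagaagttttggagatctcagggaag
The TBCA stretch holds coding bases 1 to 210 (chr5:77693302-77776257, minus strand). In it, runs of countable window starts alternate with starts of windows that have an exact copy in a pseudogene.
TBCA: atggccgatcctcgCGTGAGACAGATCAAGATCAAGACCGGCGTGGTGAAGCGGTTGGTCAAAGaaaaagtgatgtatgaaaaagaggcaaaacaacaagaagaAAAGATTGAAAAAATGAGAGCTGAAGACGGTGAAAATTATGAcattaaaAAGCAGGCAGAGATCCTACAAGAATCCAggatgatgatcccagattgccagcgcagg
On this annotation the countable coding windows of ARL2 thus lie in the 3′ part of its coding sequence, and those of PDCL3 and TBCA in scattered islands. Gene totals also take reads in exclusive untranslated exons, and where the counted reads lay is not known.

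The libraries held 9523128 to 32637658 counts. Each pulldown was set against the input of its own line with edgeR's quasi-likelihood test, adjusted over all genes tested by Benjamini-Hochberg, and a gene was called at an adjusted p under 0.05. Levels are CPM of the TMM-normalized library size, and a log2 fold change below 0 means a smaller share of RPFs in the pulldown than in the input. The spread between replicates was far wider in the PFD libraries, with a common dispersion of 0.331 against 0.0153 for TRiC. PFD pulldown replicate 1 stood apart: 52 of 9167 genes with at least 90 counts in the other 3 PFD libraries had at most 1 count there (0.567%). ARL2 was one of these, and the limits of this count were set after its values were seen. The next highest number was 2 of 8727 genes, in PFD input replicate 2, and it was 0 in the other 6 libraries. Under TMM scaling most genes are taken as equal, and a shift common to most genes is therefore invisible. Gene totals hold no codon positions, so a helper bound by a chaperone over a short stretch of its chain could have a total near or below the input.

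In the TRiC pulldown, the RPFs of TBCB fell by 33.0% and the RPFs of ARL2 fell by 30.5%, and no member was called higher. Called lower were 2 of the 9 genes, against 10.6% of all 17934 genes tested, and 0 were called higher, against 8.64% of all. With library totals in place of TMM the split over all genes turned from 1550 higher and 1894 lower to 1798 higher and 1271 lower, and both members stayed called lower. In 5 members (TBCB, ARL2, TBCC, PDCL and TXNDC9) both pulldowns lay below both inputs, as they did for 31.2% of all genes. In 2 members (TBCD and TBCE) both lay above, as for 29.3% of all genes. The median log2 fold change of the 9 was −0.22, and that of all genes tested was −0.0032. Without TRiC input replicate 2 the median of the 9 was −0.14. The signs of all 9 were the same with DESeq2's size factors, with library totals and with cyclic loess.

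**Figure D1:**
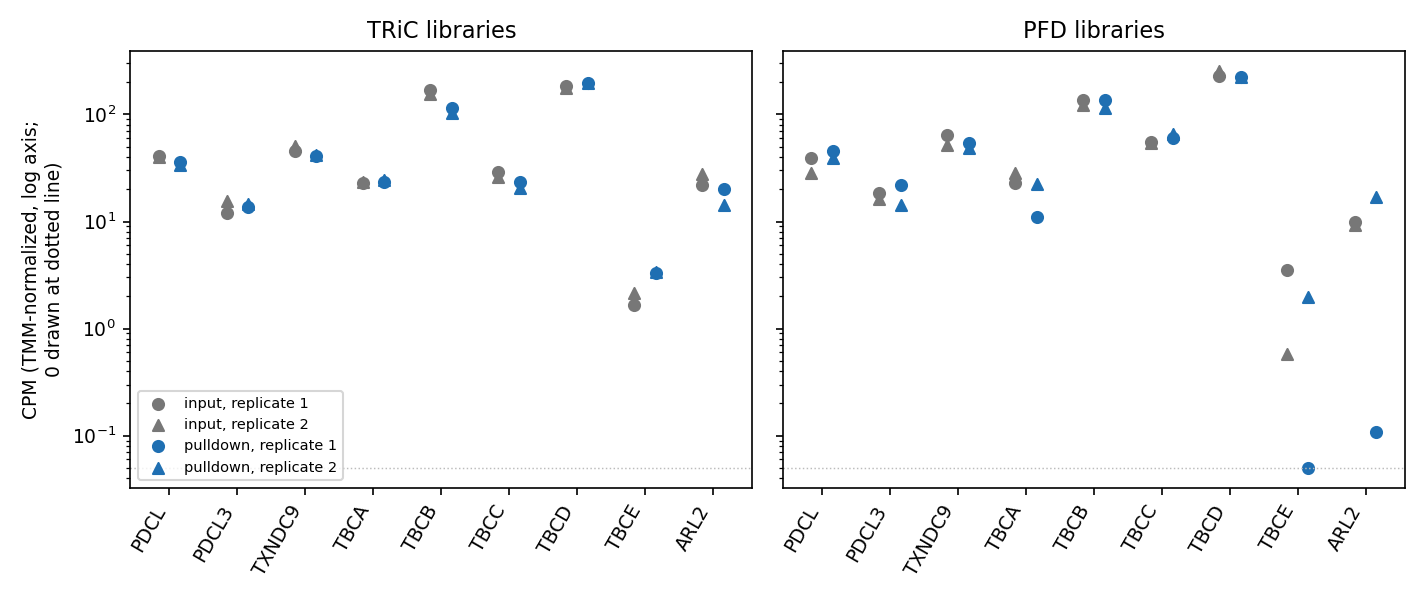
Points give the CPM (TMM-normalized, log axis) of each gene in each library, with the TRiC line on the left and the PFD line on the right, grey for input, blue for pulldown, circles for replicate 1 and triangles for replicate 2. TBCB lies lower in both TRiC pulldowns than in both TRiC inputs, and in PFD pulldown replicate 1 ARL2 drops to 0.108 CPM and TBCE to 0, drawn at the dotted line.

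Among the tubulin cofactors that receive alpha-tubulin, TBCB (ENSG00000105254, chr19:36114289-36125947) gave the clearest difference. It was at 170.0 and 154 CPM in the TRiC inputs and at 114 and 103 CPM in the TRiC pulldowns. The groups did not overlap, and the gap between them was wider than the spread within either. The mean went from 162 ± 11.1 to 108 ± 8.30 CPM (SD, n = 2 each), a log2 fold change of −0.58 (SE 0.09, 95% interval −0.76 to −0.40, edgeR adjusted p = 0.000231). Of all genes tested, 7.35% had a lower value. TBCB stayed called without each of the 4 libraries in turn, with values between −0.67 and −0.49. It was not called against a change of at least 1.5-fold, nor with all 8 libraries in one fit (−0.58, adjusted p = 0.173).

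TBCE (ENSG00000284770, chr1:235367360-235452443), the partner that takes alpha-tubulin onward, held 46 and 65 counts in the TRiC inputs and 111 and 85 in the TRiC pulldowns. That is 1.66 and 2.14 CPM against 3.33 and 3.37 CPM, with both pulldowns above both inputs. The log2 fold change of 0.81 (SE 0.36, edgeR adjusted p = 0.120) did not pass the test, and these counts lie outside the coding sequence on the annotation used here. With the counts of its read-through gene added, an alternative chosen after the data were seen, the value was 0.44 (adjusted p = 0.348).

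On the beta-tubulin side, TBCA (ENSG00000171530, chr5:77691166-77868780) was at 22.9 and 23.6 CPM in the TRiC inputs and 23.5 and 24.3 CPM in the TRiC pulldowns. These groups overlapped, and the log2 fold change of 0.04 had a 95% interval of −0.22 to 0.30. TBCD (ENSG00000141556, chr17:82752042-82945914), the largest cofactor with 1192 residues, was at 183 and 178 CPM in the inputs and 198 and 196 CPM in the pulldowns. Both pulldowns lay above both inputs by a narrow margin, with a log2 fold change of 0.13 (SE 0.07, edgeR adjusted p = 0.254). Cyclic loess called TBCD higher (0.23, adjusted p = 0.0314). TBCC (ENSG00000124659, chr6:42744498-42746103), which triggers GTP hydrolysis by tubulin, was at 28.7 and 26.0 CPM in the inputs and 23.3 and 20.7 CPM in the pulldowns. Its groups did not overlap, but the log2 fold change of −0.31 (SE 0.13, edgeR adjusted p = 0.0977) missed the threshold. Without TRiC pulldown replicate 1 the value was −0.41, and without TRiC pulldown replicate 2 it was −0.22. With the replicate number as a block TBCC was called lower (−0.31, edgeR adjusted p = 0.0444).

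ARL2 (ENSG00000213465, chr11:65014160-65022184) was at 21.9 and 27.9 CPM in the TRiC inputs and 20.2 and 14.2 CPM in the TRiC pulldowns. The groups did not overlap, but TRiC pulldown replicate 1 lay close to TRiC input replicate 1. The mean went from 24.9 ± 4.27 to 17.2 ± 4.23 CPM (SD, n = 2 each), a log2 fold change of −0.52 (SE 0.17, 95% interval −0.87 to −0.18, edgeR adjusted p = 0.0341). The value varied with single libraries. It was −0.82 (adjusted p = 6.54e-06) without TRiC pulldown replicate 1 and −0.69 (adjusted p = 0.00915) without TRiC input replicate 1. The call was lost when either replicate 2 was left out: without TRiC input replicate 2 the value was −0.35 (adjusted p = 0.324) and without TRiC pulldown replicate 2 it was −0.29 (adjusted p = 0.183). DESeq2 did not call it either (−0.51, adjusted p = 0.0621), nor did the fit of all 8 libraries or the test against a 1.5-fold change.

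The phosducin-like genes were not called in the TRiC pulldown. PDCL (ENSG00000136940, chr9:122798389-122828588) was at 41.0 and 40.3 CPM in the inputs and 35.9 and 33.5 CPM in the pulldowns, with a log2 fold change of −0.23 (SE 0.11, edgeR adjusted p = 0.149). TXNDC9 (ENSG00000115514, chr2:99318982-99340702), a thioredoxin-domain member of the family, was at 45.2 and 51.2 CPM against 40.5 and 42.0 CPM, a log2 fold change of −0.22 (SE 0.10, edgeR adjusted p = 0.143). In both genes the pulldowns lay below the inputs without overlap, and both missed the threshold. PDCL3 (ENSG00000115539, chr2:100562993-100576739) was at 12.1 and 15.4 CPM in the inputs and 13.6 and 14.6 CPM in the pulldowns, so that the pulldowns lay between the inputs. Its log2 fold change was 0.03, with a 95% interval of −0.32 to 0.38, and it turned negative without TRiC input replicate 1 (−0.13) or without TRiC pulldown replicate 2 (−0.01).

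**Figure D2:**
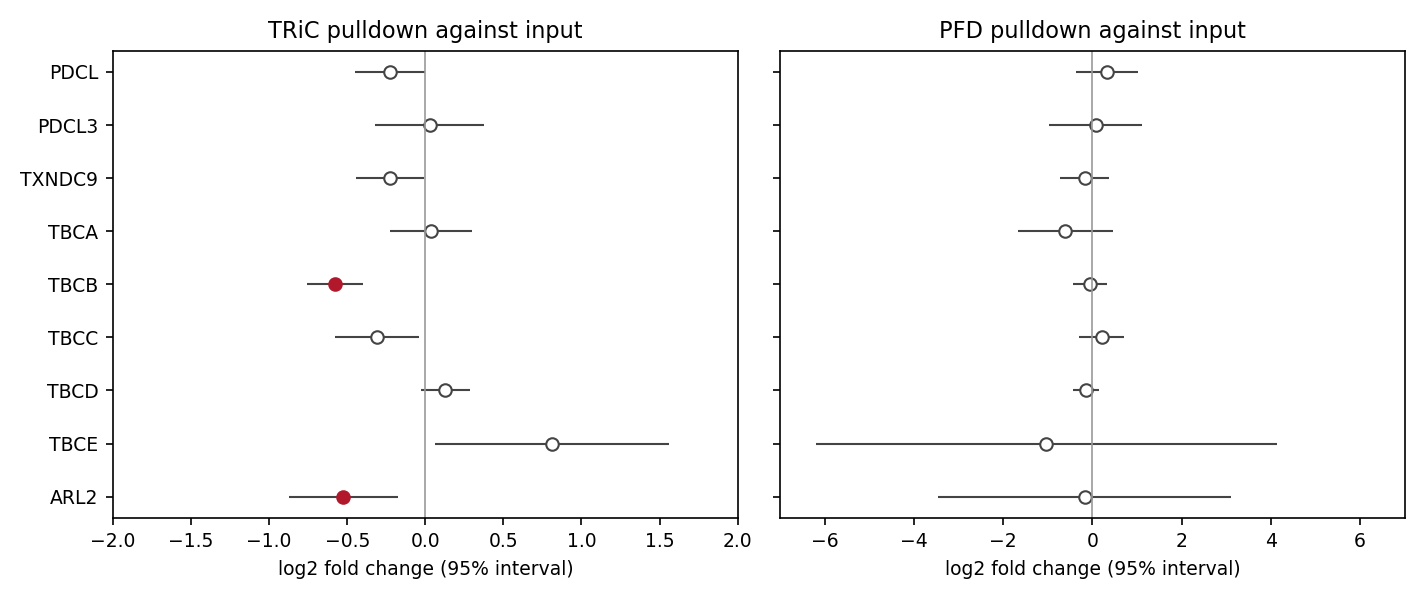
Points give the log2 fold change of each gene in the TRiC pulldown (left) and the PFD pulldown (right), with 95% intervals from the edgeR fit and filled red points for genes called at an adjusted p under 0.05; the horizontal scales differ. For TRiC, TBCB (−0.58) and ARL2 (−0.52) are filled, and for PFD no gene is, with an interval from −6.20 to 4.13 for TBCE.

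In the TRiC comparison the values also ran with coding length over all genes. Across 14611 coding genes the log2 fold change had a Spearman correlation of 0.35 with the number of codons and of −0.20 with the GC content of the coding sequence, where genes are not replicates. With these genes ranked by length into 5 groups of similar size, in the group with 26 to 260 codons, the median was −0.23 and 27.1% were called lower. In the group with 868 to 35992 codons, the median was 0.16 and 2.46% were called lower. TBCB (245 codons with the stop), ARL2 (185), PDCL3 (240), TXNDC9 (227) and TBCA (109) belong to the shortest group. TXNDC9 lay near the median of that group, TBCA and PDCL3 lay above its upper quartile of 0.01, and TBCB and ARL2 lay below its lower quartile of −0.41. PDCL (302 codons) and TBCC (347) belong to the next group, whose median was −0.12, and TBCC lay just below its lower quartile of −0.30. TBCE (528 codons) lay above the upper quartile of its group, 0.21. TBCD, with 1193 codons, lay close to the median of the longest group. The part of length in the members' values was not tested.

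In the PFD pulldown edgeR's quasi-likelihood test called none of the 9 genes, where it called 0.191% of all 14111 genes lower and 0.0496% higher. DESeq2, which called 3.78% of all genes in either direction, called none of the 9. At an unadjusted p under 0.05 there were 978 genes, and no member was among them. Both pulldowns lay below both inputs in 2 members (TBCA and TBCD), as in 20.4% of all genes, and above in 2 others (PDCL and TBCC), as in 18.3%. The median log2 fold change of the 9 was −0.13, against −0.00048 for all genes tested. Without PFD input replicate 1 it was 0.015.

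The tubulin cofactors with many counts lay near their inputs in the PFD libraries. TBCB was at 138 and 124 CPM in the PFD inputs and 137 and 115 CPM in the PFD pulldowns, which overlapped, with a log2 fold change of −0.05 and a 95% interval of −0.44 to 0.33. Its sign changed without PFD input replicate 1 (0.015), without PFD pulldown replicate 2 (0.061) and with counts thinned to the smallest library (0.023). TBCD was at 231 and 257 CPM against 222 and 222 CPM, a log2 fold change of −0.13 (95% interval −0.42 to 0.16). TBCC was at 55.1 and 54.7 CPM against 60.9 and 65.7 CPM, a log2 fold change of 0.20 (95% interval −0.30 to 0.71). These intervals leave room for changes of the size TBCB showed with TRiC only in TBCC, and there only upward.

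The other cofactor genes scattered more. TBCA was at 22.9 and 28.3 CPM in the PFD inputs and at 11.0 and 22.3 CPM in the PFD pulldowns. The low value came from PFD pulldown replicate 1, and the log2 fold change of −0.61 (SE 0.46, edgeR adjusted p = 0.888) was −0.20 without it. Without PFD pulldown replicate 2 it was −1.22 and passed (adjusted p = 0.0379). ARL2 held 192 and 97 counts in the PFD inputs, 1 in PFD pulldown replicate 1 and 479 in PFD pulldown replicate 2. The replicates thus lay on opposite sides of the inputs, at 0.108 and 16.8 CPM against 9.93 and 9.33 CPM, and the fitted log2 fold change of −0.17 had an SE of 1.42. It was 0.80 without PFD pulldown replicate 1 and −6.37 (adjusted p = 0.000177) without PFD pulldown replicate 2. The PFD inputs held 68 and 6 counts of TBCE and the pulldowns 0 and 56, with a log2 fold change of −1.03 and an SE of 2.22. No direction can be read for ARL2 or TBCE from these libraries.

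For the phosducin-like genes, PDCL was at 38.8 and 28.3 CPM in the PFD inputs and 45.2 and 39.6 CPM in the PFD pulldowns. Its pulldowns lay above its inputs by a small margin, and the log2 fold change of 0.33 had a 95% interval of −0.36 to 1.03. The PDCL value was 0.57 without PFD input replicate 1 and 0.11 without PFD input replicate 2. TXNDC9 was at 63.7 and 52.3 CPM against 54.3 and 48.5 CPM, which overlapped, with a log2 fold change of −0.18 (95% interval −0.73 to 0.38). Its value was −0.04 without PFD input replicate 1 and −0.32 without PFD input replicate 2. PDCL3 was at 18.3 and 16.2 CPM against 22.2 and 14.2 CPM, so that the inputs lay between the pulldowns. Its log2 fold change of 0.07 (95% interval −0.97 to 1.11) changed sign when PFD pulldown replicate 1 (−0.29) or PFD input replicate 2 (−0.03) was left out.

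Whether a gene's enrichment differed between the chaperones was tested as an interaction over all 8 libraries, and none of the 9 genes was called (0.0371% of 18855 genes were, in either direction). DESeq2, which called 5.22% of all genes in this comparison, called none of them. The edgeR fit estimates each gene's spread over both lines together, so the wider PFD spread also enters the TRiC part. With all 8 libraries in one fit, 31 genes were called for TRiC, against 3444 in the TRiC libraries alone. The lack of a call therefore does not show that the enrichments were equal. The TRiC enrichment of TBCB was lower than its PFD enrichment by a log2 difference of −0.51 (SE 0.17, 95% interval −0.90 to −0.11, edgeR adjusted p = 0.253). The difference was −0.54 (95% interval −1.18 to 0.10) for PDCL and −0.51 (95% interval −1.04 to 0.02) for TBCC. For TBCD it was 0.27 (95% interval −0.01 to 0.55), for TBCA 0.64, for PDCL3 −0.02 and for TXNDC9 −0.03. Without PFD pulldown replicate 1 the TBCA value was 0.20. The intervals of TBCE and ARL2 spanned several log2 units in both directions, with values of 1.82 and −0.41. Without PFD pulldown replicate 2, which leaves PFD pulldown replicate 1 alone in its group, the value was −0.57 for TBCB and 1.32 for TBCA. In that fit the calls over all genes also went from 7 to 3931. Since the interaction over all 8 libraries did not call TBCB, its lower count in the TRiC pulldown is not shown to be particular to TRiC.

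Levels between genes were compared per kilobase of coding sequence. In the TRiC inputs TBCB had the highest value of the members, with 210 to 231 CPM per kilobase, above 95.7% of the 14611 coding genes tested. TBCA (70.1 to 72.3) and TXNDC9 (66.4 to 75.2) followed and overlapped each other. TBCD (49.7 to 51.2), PDCL (44.5 to 45.2) and ARL2 (39.4 to 50.3) came next, and the range of ARL2 overlapped both of the others. TBCC (25.0 to 27.6), PDCL3 (16.9 to 21.4) and TBCE (1.05 to 1.35) had the lowest values, without overlap. On the annotation used here the counts of TBCE lie outside its coding sequence, so its value does not measure its translation. In the PFD inputs TBCB again led, with 168 to 187 CPM per kilobase. The TBCE value, under the same limit, was again lowest, with 0.364 to 2.22.

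The order changed when the countable length was used in place of the full coding length. Per countable kilobase in the TRiC inputs, TBCB was at 218 to 240 CPM, TBCA at 143 to 148, ARL2 at 116 to 148, TXNDC9 at 122 to 138 and PDCL3 at 64.2 to 81.5. TBCA and ARL2 overlapped, as did ARL2 and TXNDC9. PDCL3 moved above TBCD (50.1 to 51.6), PDCL (45.8 to 46.6) and TBCC (25.6 to 28.3), and TBCE has no countable length. In the PFD inputs the top of this order was not resolved, since TBCB (175 to 194), TBCA (143 to 177) and TXNDC9 (141 to 171) overlapped in turn. The fold changes do not depend on this scale.

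Between the lines, 2 genes had input levels that lay far apart. TBCC was at 28.7 and 26.0 CPM in the TRiC inputs and at 55.1 and 54.7 CPM in the PFD inputs. ARL2 was at 21.9 and 27.9 CPM in the TRiC inputs and at 9.93 and 9.33 CPM in the PFD inputs. The lines are different clones with tables normalized separately, so clone, batch and tag cannot be told apart and no test was made.

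The genes these helpers work with were described from 6 lists, whose counts stand beside the 10.6% of all genes called lower and the 8.64% called higher in the TRiC pulldown. Of the TRiC subunit genes 3 of 8 were called lower there, with a list median of −0.20 that shrank to −0.063 under cyclic loess. CCT3 was lowest (−0.31) and CCT4 highest (−0.13). The calls of CCT5 (−0.23) and CCT7 (−0.25) were lost with library totals, and all 3, with CCT3, under cyclic loess. Of the prefoldin subunit genes 3 of 6 were lower, namely PFDN6 (−0.53), VBP1 (−0.37) and PFDN2 (−0.35, lost with library totals and with cyclic loess). PFDN5 had the highest value of that list, 0.16 (SE 0.46, edgeR adjusted p = 0.855), which was −0.12 under cyclic loess. It held 46 and 54 counts in the TRiC inputs and 43 and 65 in the TRiC pulldowns. On the annotation used here, 0% of its coding sequence is exclusive to it. PDCD5, which binds TRiC, was lower (−0.35, lost in the same scalings), while PDC and PDCL2, the other phosducin-like genes, did not pass the filter. Of the G protein beta subunits, the clients of PDCL, GNB2 (−0.53) and GNB1 (−0.36) were lower and GNB3 had the highest value (0.39), and of the tubulins 6 of 15 were lower, the lowest TUBA4A (−0.63, lost with DESeq2). The other tubulins called lower were TUBG1 (−0.49), TUBB2B (−0.44), TUBB4B (−0.38), TUBB6 (−0.34) and TUBB (−0.31), and TUBG2 was highest (0.16). The call of TUBB was lost under cyclic loess (−0.13, adjusted p = 0.150). PFDN6 (130 codons), VBP1 (198) and PDCD5 (126) belong to the shortest length group, of which 27.1% were called lower. CCT3 (546 codons), TUBG1 (452) and TUBA4A (449) belong to the group with 402 to 564 codons, of which 9.21% were called lower. GNB1 and GNB2 (341 codons each) belong to the group with 260 to 402 codons, of which 14.8% were called lower. Nothing particular to a list was tested.

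Relatives of the cofactors differed among themselves in the TRiC pulldown. ARL3, the closest relative of ARL2 in this list, was lower at −0.54 (SE 0.10, edgeR adjusted p = 0.00145). ARL2BP, which binds ARL2, was lower at −0.84 (edgeR adjusted p = 0.0308), a call lost with DESeq2 (adjusted p = 0.0643). Both belong to the shortest length group, with 183 codons for ARL3 and 164 for ARL2BP. TBCEL, a relative of TBCE, was the only gene of the lists called higher. Its inputs held 63 and 49 counts and its pulldowns 99 and 161, with a log2 fold change of 1.26 (SE 0.38, edgeR adjusted p = 0.0271), and cyclic loess did not call it (1.03, adjusted p = 0.0638). As with TBCE, little of its coding sequence is exclusive, 25.0% on its own strand. TBCCD1, RP2, PDE6D, UNC119 and ELMOD2 were not called. In the PFD pulldown TUBA1B (−1.06, adjusted p = 0.0218) was the only gene of the 6 lists that edgeR called, and the lowest tubulin, with TUBB4A highest (1.20). DESeq2 also called ARL2BP (−1.28, adjusted p = 0.0437) and TUBA1A (−0.61, adjusted p = 0.0144) lower and TUBB4B higher (0.20, adjusted p = 0.0367). The edgeR values in the PFD pulldown ran from −0.09 (CCT8) to 0.08 (CCT6A) for the TRiC subunits, from −0.64 (PFDN1) to 0.22 (PFDN2) for prefoldin and from −0.18 (GNB5) to 0.65 (GNB3) for the G protein beta subunits. For the relatives of the cofactors they ran from −1.28 (ARL2BP) to 1.04 (RP2), and PDCD5 was at 0.49.

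The pattern most like that of each member over the 8 libraries was sought among 11266 other genes (11267 for TBCE) with a mean count of at least 100, by Pearson's r of log2 CPM. These 8 points share 2 lines and their depth, so r is a description. TBCC was most like VASP (0.998), ARL2 like EYA1 (0.997), TBCA like SLC10A7 (0.996), TBCE like CENPJ (0.990) and TXNDC9 like GNAI3 (0.985). TBCD was most like MTMR10 (0.979), PDCL3 like TAF3 (0.976) and PDCL like C17orf58 (0.957). TBCB had the lowest such value, 0.934 with ACLY. Within the 9 genes the closest pair was TBCA and ARL2, at 0.904, both of which were low in PFD pulldown replicate 1.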

How the data were processed

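The deposited values are whole-number counts per gene in a table for each cell line. According to the methods, the authors trimmed and demultiplexed reads, extracted unique molecular identifiers with UMI-tools against PCR duplicates, removed non-coding RNA with Bowtie2 2.4.2, and aligned the rest to hg38 with STAR 2.7.10a, which counted unique alignments per gene. The annotation release and the strand column are not given in the sources used here. Of 60664 identifiers, 60463 matched GENCODE release 44, the source of names, positions and coding sequences.

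Counts were tested in R 4.3.3 with edgeR 4.0.16 (TMM, filterByExpr, glmQLFit, glmQLFTest) within each line, and as an interaction over all 8 libraries. Alternatives used DESeq2 1.42.0, limma 3.58.1, other filters and scalings, thinning, and each library left out. Scripts were tested on simulated data. Intervals are at 95%. The members and lists were chosen with earlier results of these data known, and the text names all members, and from the lists the called, highest and lowest genes. The methods describe inputs and pulldowns as taken from ribosome pellets, but do not state that equal replicate numbers mark the same pellet. The numbers were therefore not taken as pairs, and a fit with them as a block is given as an alternative. Deviations of same-numbered libraries correlated at 0.186 for TRiC and −0.0213 for PFD. With 2 samples a group, the spread between replicates limits the precision, and its weight against that of depth was not tested gene by gene. In the TRiC libraries the SE was 0.36 for TBCE (46 to 111 counts) and 0.07 for TBCD (4945 to 6616 counts).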

Additional observations from a re-analysis of the deposited data

How the results depend on the processing

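Over the alternatives, the TRiC value of TBCB kept its sign in 14 of 14 and was called in 12, and that of ARL2 kept its sign in 14 of 14 and was called in 9. The called TRiC genes (3444, of which 1550 higher) numbered 228 against a 1.5-fold change and 31 with all 8 libraries in one fit. The members called for TRiC were 1 with DESeq2, 0 against a 1.5-fold change and 0 with all 8 libraries. With 1 library left out, where the lone sample of a group is assumed to vary like the other group, there were 1698 (without TRiC input replicate 1) to 4698 genes, 1790 without TRiC input replicate 2, and 1 to 3 members, and PDCL3 lay between −0.13 and 0.20.

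For PFD, 34 genes were called, against 533 with DESeq2, 57 with cyclic loess, 152 without a filter, 83 with all 8 libraries, and 71 to 2434 with 1 library left out (76 and 71 without PFD input replicates 1 and 2, 395 and 2434 without PFD pulldown replicates 1 and 2). The members called were then 0 to 2. Their median was −0.062 with at least 10 or at least 100 counts required (over the 7 genes left) and −0.066 with thinned counts, and −0.14 to 0.015 with 1 library left out. TBCB was 0.023 with thinned counts. With 1 library left out it lay between −0.19 and 0.061, PDCL3 between −0.29 and 0.36, ARL2 between −6.37 and 0.80, and TBCE between −7.75 and 0.77.

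The interaction called 7 genes, but 985 with DESeq2, 511 without a filter, 14 with at least 10 counts required, and 0 to 3931 with 1 library left out (0 without either PFD input, 1245 and 3931 without PFD pulldown replicates 1 and 2, 2 to 6 without a TRiC library), which gave 0 to 4 members. With library totals PDCL3 was 0.043 and TXNDC9 0.034. With 1 library left out PDCL3 lay between −0.26 and 0.29, TXNDC9 between −0.21 and 0.10, TBCE between −0.063 and 9.40, and ARL2 between −1.35 and 5.96. TBCA then lay between 0.20 and 1.32. The cause of these shifts was not tested.

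With the replicate number as a block, the TRiC call of TBCC was gained (−0.31, adjusted p = 0.0444), TBCB and ARL2 stayed called, and 4689 genes were called. The PFD block called 134 genes and no member. The block of the interaction called 0 genes, with PDCL3 at 0.0099 and ARL2 at 0.96. Whether equal numbers mark the same ribosome pellet is not stated.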
